A study of Sus scrofa with 12 samples.

Results

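Astrocyte identity genes and genes of reactive astrocytes were examined in RNA of newborn piglet striatum after DHCA, the chilled cardiac arrest used in heart surgery on newborns (deep hypothermic cardiac arrest in the labels). The 35 names cover filament proteins, astrocyte identity genes, transporters and junction proteins, secreted proteins, genes known from reactive astrocytes, and ID transcription factors. They were matched by gene name to the authors' deposited comparison table. Of them, 32 were found there, each with a single identifier, among 25880 genes in the count table. S100B, LCN2 and ASPG had no row under their names, and CHI3L1, ID1 and LGALS3 were removed by the filter on low counts. The remaining 29 genes were tested, among 14004 genes in all.

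The DHCA group held 6 newborn piglets, which were anesthetized with 4% isoflurane, placed on cardiopulmonary bypass through an opened sternum, cooled to 18 °C and held in circulatory standstill for 30 min. Bypass then brought them back to 37 °C, and 6 h of recovery followed. The Sham group held 6 newborn piglets, for which the labels name anesthesia with 4% isoflurane and no other procedure. Surgery, bypass, cooling, arrest, rewarming and recovery therefore differ between the groups together and cannot be told apart. Breed and sex are not given in the labels.

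Astrocytes are the glial cells that take up glutamate and potassium, couple to each other through gap junctions and line the blood vessels of the brain with their end-feet. After injury they can become reactive, a state classically described by more of the filament protein GFAP, with vimentin, nestin and a set of secreted and surface proteins. In the newborn brain, vimentin, nestin and FABP7 are also made by immature glia and progenitors, and nestin and vimentin by endothelium as well. RNA from whole tissue does not separate these sources, and a change in the number of astrocytes and a change in RNA per astrocyte cannot be told apart.

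Total counts per library were 5434652 to 9997400 in DHCA and 1377809 to 12933536 in Sham, where Sham 5 and Sham 1 (2515816) were the shallowest. Mitochondrial transcripts made up 10.6% to 26.3% of counts in DHCA and 4.01% to 20.2% in Sham, with the lowest share in Sham 1. Markers of spiny neurons, the main neurons of striatum, made up 0.205% to 0.464% of counts in DHCA and 0.263% to 0.609% in 5 Sham libraries. The library labelled Sham 4 goes against the striatum label, with 0.0170% for the spiny neuron markers and 0.287% for markers of cortical or hippocampal neurons, which did not exceed 0.0860% in DHCA and 0.103% in the other Sham libraries. Values without Sham 1, Sham 4 or Sham 5 are therefore given beside the genes they move most.

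No astrocyte gene of the 29 tested passed the threshold between DHCA and Sham. The test was the edgeR quasi-likelihood test with Benjamini-Hochberg adjustment over all 14004 genes and a threshold of 0.05, which called 26 genes, or 0.186%. At an unadjusted p under 0.05, 2 of the 29 were higher in DHCA (SDC4 and STEAP4), where the background was 3.43% of genes, and 1 was lower (NES), where the background was 4.47%. In none of the 29 did the DHCA and Sham libraries separate without overlap, as they did in 0.993% of all genes tested. Positive and negative fold changes were 14 and 15 in number, with a median log2 fold change of -0.02, against -0.00299 over all genes tested. For 25 of the 29 genes the 95% interval of the log2 fold change stayed within 1 of 0, which is a doubling or a halving.

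**Figure D1:**
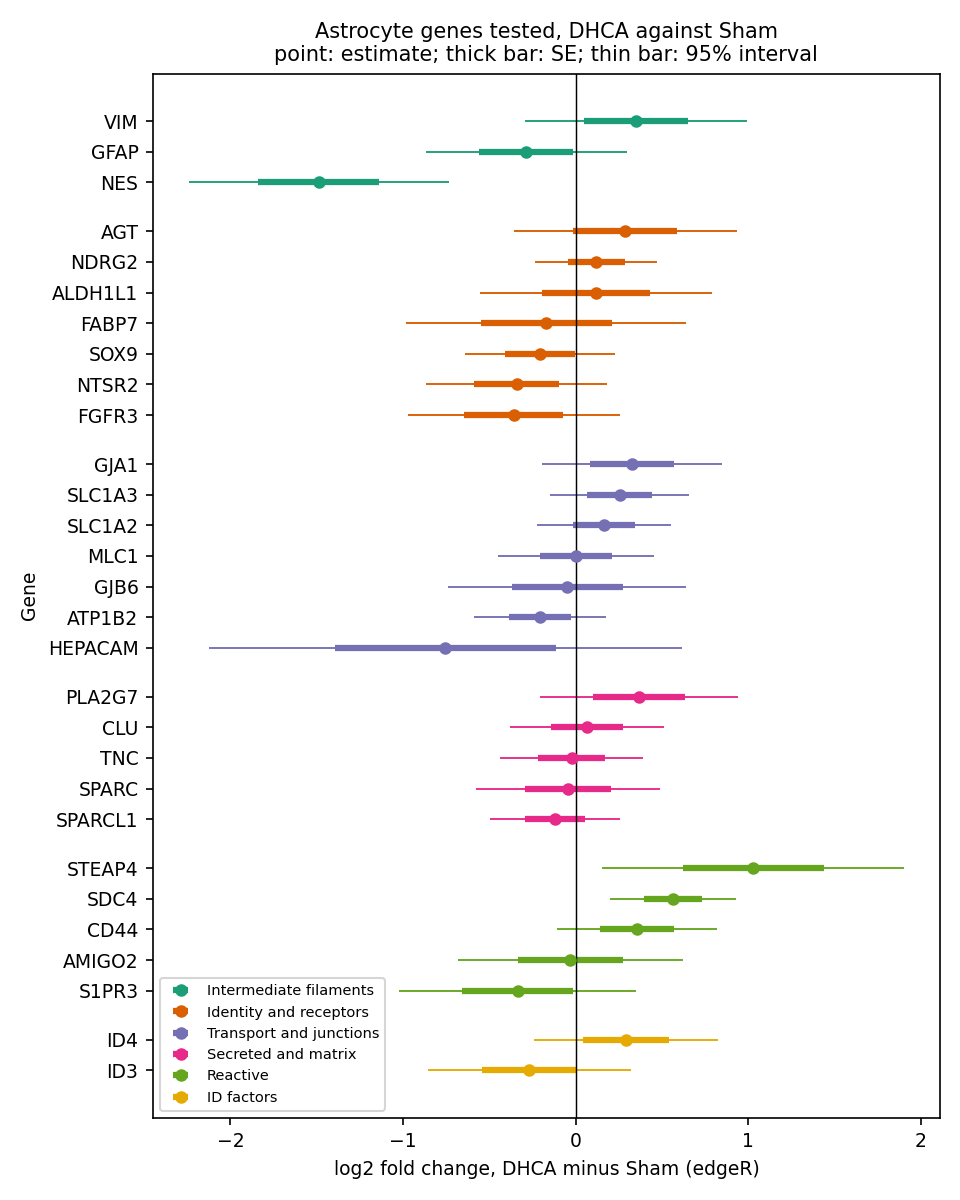
Log2 fold change of DHCA over Sham from the edgeR fit for the 29 tested astrocyte genes, ordered by role; points are estimates, thick bars the SE and thin bars the 95% interval. NES stands farthest below 0 at -1.49 and STEAP4 farthest above it at 1.03, while most intervals cross 0.

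Other tools gave a different count for a single gene. NES was called by DESeq2, which called 1.24% of genes, and by limma-voom with library quality weights, which called 1.48%. It was also the gene called among the 31 names with an adjusted p in the authors' deposited table, where 1.29% of genes were called. Limma-voom without weights called 0.193% of genes and no astrocyte gene.

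Among the filament proteins, NES stood lower in DHCA by its level in most libraries, while GFAP and VIM overlapped between the groups. NES (chr4:93412557-93423128, plus strand, Sscrofa11.1) encodes nestin, the filament of neural progenitors. Levels are given as CPM, counts scaled to a common library size with TMM factors. NES had 10.3 CPM at the lowest, 13.2 at the median and 20.0 at the highest in DHCA, against 16.3, 39.2 and 88.0 CPM in Sham. Sham 1 was the highest library and Sham 2 was the only Sham library that fell within the DHCA range, so 5 of 6 Sham libraries lay above every DHCA library. Means were 14.6 ± 4.25 CPM in DHCA and 41.8 ± 25.1 CPM in Sham (SD, n = 6 each). The log2 fold change was -1.49 (SE 0.35, 95% interval -2.24 to -0.74), with an edgeR adjusted p of 0.140.

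The call for NES depended on the tool and on single libraries, while its direction held in each of the 23 other settings. By DESeq2 the log2 fold change was -1.50 with an adjusted p of 0.00496, and by limma-voom with quality weights it was -1.06 with an adjusted p of 0.0464. In the authors' deposited table it was -1.35 with an adjusted p of 0.00367. Without Sham 2, edgeR gave -1.66 with an adjusted p of 0.0422. Without Sham 1 it was -1.13 (adjusted p 0.139), without Sham 4 it was -1.51 (adjusted p 0.227), and without Sham 1, Sham 4 and Sham 5 it was -0.83 (adjusted p 0.622). Over all 23 settings the adjusted p for NES lay between 0.00496 and 0.622.

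The 7 of 8 endothelial markers with an identifier, none of them at 0 throughout, summed to 0.0255% to 0.0345% of counts in DHCA and 0.0224% to 0.0483% in Sham, with the highest shares in Sham 1 and Sham 5. At an unadjusted p under 0.05, 4 of these 7 markers were lower and 1 was higher in DHCA, beside the background of 4.47% lower and 3.43% higher. By the same measure 3 of 6 markers of fibroblasts and meninges and 2 of 6 of microglia were lower. So were 3 of 5 of cortical or hippocampal neurons, 2 of 8 of neurons in general and 2 of 2 of red cells. None was lower of 10 for spiny neurons, 7 for oligodendrocytes, 7 for pericytes and smooth muscle, 4 for ependyma and choroid plexus and 4 for neutrophils and monocytes. The fibroblast, microglia, spiny neuron, pericyte and neutrophil sets also had their highest share in Sham 1. The 6 markers of oligodendrocyte precursors, all detected, summed to 0.0377% to 0.0888% in DHCA and 0.0665% to 0.144% in Sham, again highest in Sham 1. At an unadjusted p under 0.05, 1 of these 6 was lower in DHCA, and 1 of the 4 neutrophil and monocyte markers was higher. The part of any of these marker sets in the NES result was not tested.

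**Figure D2:**
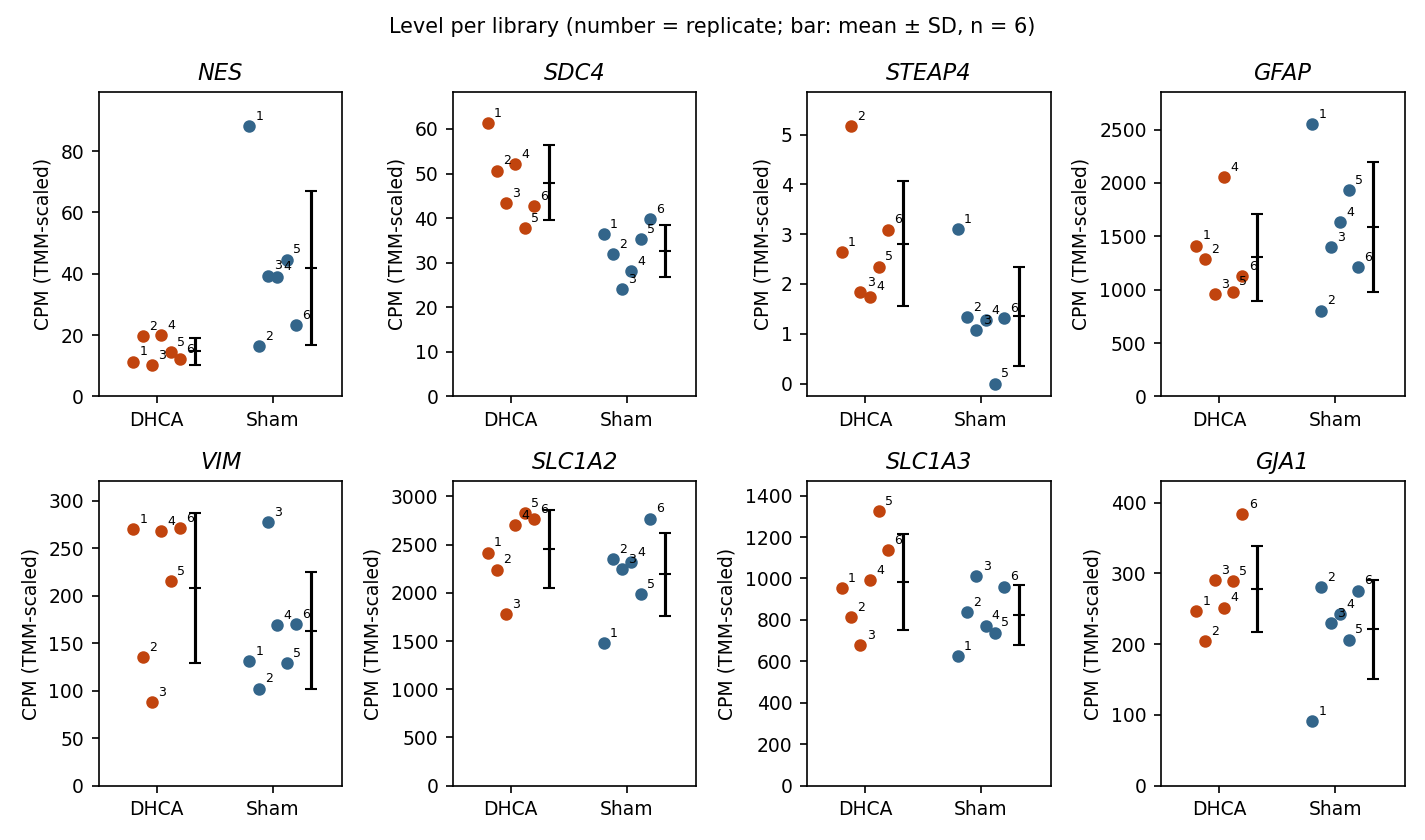
CPM of 8 astrocyte genes in each library, DHCA left and Sham right, with the replicate number beside each point and the mean ± SD (n = 6) as a bar. NES is low in all DHCA libraries and in Sham 2, and SDC4 is above the Sham maximum in 5 of 6 DHCA libraries. STEAP4 is higher in all DHCA libraries than in every Sham library but Sham 1, at few reads. GFAP, VIM, SLC1A2, SLC1A3 and GJA1 overlap widely.

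GFAP (chr12:18455952-18466680, plus strand) encodes the defining intermediate filament of astrocytes. GFAP had 955 CPM at the lowest, 1205 at the median and 2057 at the highest in DHCA, against 803, 1516 and 2553 CPM in Sham. The groups overlapped over nearly their whole range, with the highest library in Sham 1 and the lowest in Sham 2. Its log2 fold change was -0.29 (SE 0.27, 95% interval -0.87 to 0.29, edgeR adjusted p 0.823). Without Sham 1 this was -0.11, without Sham 1 and Sham 5 it was 0.05, and without Sham 1, Sham 4 and Sham 5 it was 0.19.

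VIM (chr10:43517283-43530623, plus strand) encodes vimentin, the filament of immature and reactive astrocytes and of vessel cells. VIM had 88.2 CPM at the lowest, 242 at the median and 271 at the highest in DHCA, against 102, 150 and 278 CPM in Sham. The values of DHCA 1, 4 and 6 lay close together near the top, but Sham 3 was higher than all of them and DHCA 3 was the lowest of the 12 libraries. VIM had a log2 fold change of 0.35 (SE 0.30, 95% interval -0.30 to 0.99, edgeR adjusted p 0.812).

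The glutamate transporters and the gap junction protein of astrocytes overlapped between DHCA and Sham. SLC1A2 (chr2:25604950-25766656, plus strand), the main glutamate transporter of mature astrocytes, had 1776 CPM at the lowest, 2557 at the median and 2826 at the highest in DHCA, against 1475, 2282 and 2769 CPM in Sham. Its log2 fold change was 0.16 (SE 0.18, 95% interval -0.23 to 0.55, edgeR adjusted p 0.833). SLC1A3 (chr16:21872993-21968671, plus strand), the transporter that is prominent in immature astrocytes and radial glia, had 678, 973 and 1326 CPM in DHCA, against 626, 806 and 1010 CPM in Sham in the same order. DHCA 5 and DHCA 6 exceeded every Sham library for SLC1A3, and DHCA 3 lay near the bottom with Sham 1. The log2 fold change of SLC1A3 was 0.25 (SE 0.19, 95% interval -0.15 to 0.66, edgeR adjusted p 0.795).

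GJA1 (chr1:40988528-41002189, minus strand) encodes connexin 43, the main gap junction protein of astrocytes. GJA1 had 204 CPM at the lowest, 270 at the median and 384 at the highest in DHCA, against 90.7, 236 and 281 CPM in Sham. A single library, Sham 1, stood far below the rest. GJA1 had a log2 fold change of 0.33 (SE 0.24, 95% interval -0.20 to 0.85, edgeR adjusted p 0.797), and 0.16 without Sham 1. GJB6, the other astrocyte connexin, was at 3.92 to 11.4 CPM in DHCA and 4.99 to 15.1 CPM in Sham, with a log2 fold change of -0.05, and 0.35 without Sham 1 and Sham 5.

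MLC1 and HEPACAM encode membrane proteins that form a complex at astrocyte contacts and end-feet, and ATP1B2 encodes a beta subunit of the sodium pump. MLC1 differed least of the 29 genes, with 180 to 321 CPM in DHCA, 152 to 340 CPM in Sham and a log2 fold change of 0.0015 (SE 0.21). ATP1B2 had 97.0 to 162 CPM in DHCA and 121 to 179 CPM in Sham, with a log2 fold change of -0.21 (SE 0.18). None of the 7 transport and junction genes had an unadjusted p under 0.05, near the background of 3.43% higher and 4.47% lower. Their median log2 fold change was 0.0015.

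HEPACAM (chr9:52113634-52131401, minus strand) was the most variable of the astrocyte genes within groups, with a pooled SD of 1.26 on the log2(CPM + 0.5) scale, against a median of 0.48 over the 29 genes and 0.45 over all genes tested. In DHCA it had 953 CPM at the lowest, 1371 at the median and 5586 at the highest, against 998, 3401 and 12728 CPM in Sham. High values occurred in both groups, in DHCA 2 and DHCA 4, in Sham 2 (3877 CPM) and Sham 4 (4502 CPM) and, by far the highest, in Sham 1. For HEPACAM this gave a log2 fold change of -0.75 (SE 0.64, 95% interval -2.13 to 0.62, edgeR adjusted p 0.812), -0.08 without Sham 1, and 0.30 without Sham 1, Sham 4 and Sham 5.

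The HEPACAM pattern over libraries was set beside that of all other genes tested. The most alike was an annotated ribosomal RNA gene (5_8S_rRNA, chr8:47807819-47807968, minus strand), with a correlation of 0.958 of log2 values over the 12 libraries. Both genes were counted in the same libraries, so differences in depth or preparation between libraries bear on both. This ribosomal RNA gene was chosen after its values were seen. The 5_8S_rRNA gene had 736 CPM in DHCA 2, 872 in DHCA 4 and 1975 in Sham 1, against 160 in DHCA 3 and 97.8 in Sham 3, where HEPACAM was also low. All 32 genes together took 0.857% to 2.09% in DHCA and 1.34% to 2.50% of counts in Sham, and 0.771% to 1.51% in DHCA and 0.972% to 1.29% in Sham without HEPACAM. Whether ribosomal RNA has a part in the HEPACAM counts was not tested.

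**Figure D3:**
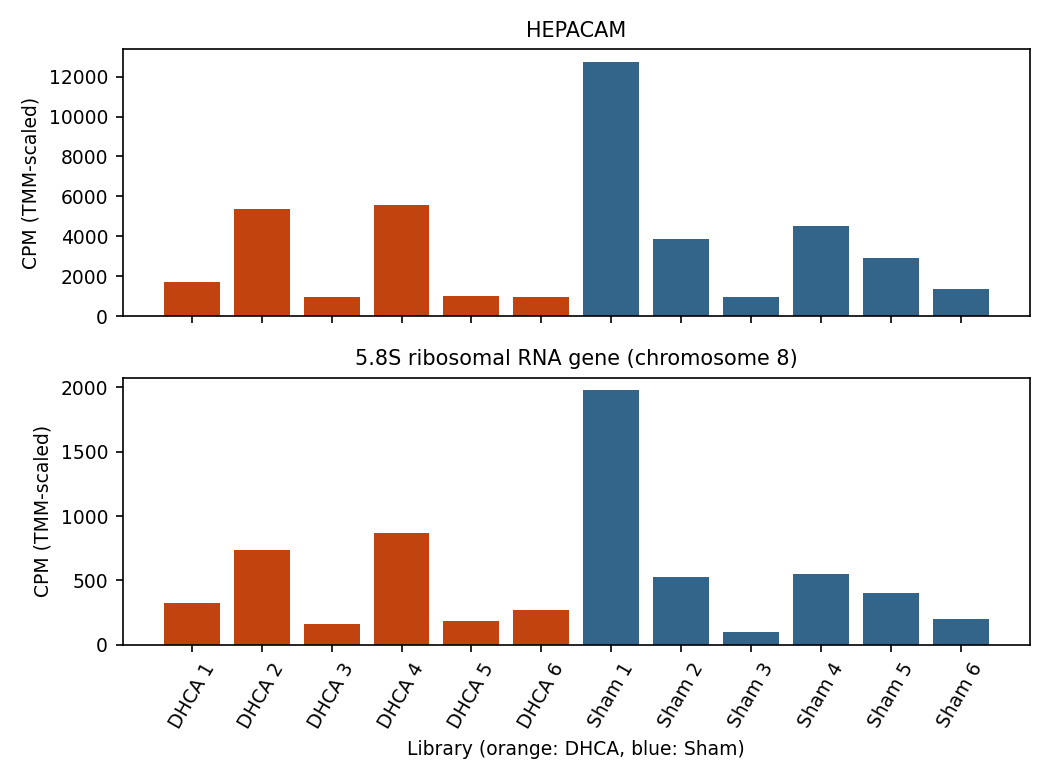
CPM of HEPACAM (top) and of the ribosomal RNA gene most like it (bottom) in each library, DHCA in orange left of Sham in blue. Both are highest in Sham 1, at 12728 and 1975 CPM, with DHCA 2 and DHCA 4 next.

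Genes of astrocyte identity overlapped between the groups, where 0.993% of all genes tested did not. None of the 7 tested had an unadjusted p under 0.05, which is near the background of 3.43% higher and 4.47% lower. ALDH1L1, a folate enzyme used as an astrocyte marker, had 27.3 to 55.7 CPM in DHCA and 21.7 to 71.9 CPM in Sham, with a log2 fold change of 0.12 (SE 0.31). Sham 1 and Sham 5 were its highest libraries, and without both the log2 fold change of ALDH1L1 was 0.68 (SE 0.23, edgeR adjusted p 0.381), or 0.61 (adjusted p 0.782) without Sham 4 as well. SOX9, a transcription factor of glial fate, had 55.5 to 123 CPM in DHCA and 79.7 to 145 CPM in Sham, with a log2 fold change of -0.21 (SE 0.20). NDRG2, a cytoplasmic protein of mature astrocytes, was among the steadiest, with 273 to 342 CPM in DHCA and 175 to 330 CPM in Sham.

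FABP7, the fatty acid binding protein of radial glia and immature astrocytes, varied more in Sham than in DHCA. It had 42.5 to 87.6 CPM in DHCA and 17.1 to 157 CPM in Sham, where Sham 1 was the lowest and Sham 4 the highest. The log2 fold change of FABP7 was -0.17 (SE 0.38), and 0.24 without Sham 4. Over the 23 other settings it lay between -0.48 and 0.24. AGT (angiotensinogen), FGFR3 (a fibroblast growth factor receptor) and NTSR2 (a neurotensin receptor) had log2 fold changes of 0.29, -0.36 and -0.34, with SEs of 0.30, 0.29 and 0.25. AGT was at 0.53 without Sham 4, its highest library, and FGFR3 at 0.05 without Sham 1 and Sham 5.

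None of the 5 tested genes of secreted and matrix proteins had an unadjusted p under 0.05, near the background of 3.43% higher and 4.47% lower. CLU (clusterin, a secreted chaperone) had 1339 to 3023 CPM in DHCA and 1563 to 2669 CPM in Sham, with a log2 fold change of 0.07 (SE 0.21). SPARC and SPARCL1, related matrix proteins that act on synapse formation, had log2 fold changes of -0.05 (SE 0.25) and -0.12 (SE 0.18). TNC (tenascin C, a matrix protein of developing and injured tissue) had -0.02 (SE 0.19), and PLA2G7, which breaks down platelet-activating factor, had 0.37 (SE 0.27). CHI3L1, a chitinase-like protein used as a marker of reactive astrocytes in human brain, had 13 counts over all 12 libraries and was not tested.

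Of the 8 genes known from reactive astrocytes, 5 were tested, and SDC4 and STEAP4 were higher in DHCA without passing the threshold. SDC4 (chr17:47646933-47670461, minus strand) encodes syndecan 4, a cell-surface heparan sulfate proteoglycan. SDC4 had 37.7 CPM at the lowest, 47.0 at the median and 61.4 at the highest in DHCA, against 24.0, 33.6 and 39.7 CPM in Sham. In 5 of 6 DHCA libraries SDC4 lay above every Sham library, and DHCA 5 lay below Sham 6 alone. The log2 fold change was 0.56 (SE 0.17, 95% interval 0.20 to 0.93), with an edgeR adjusted p of 0.308. SDC4 also had the smallest spread within groups, a pooled SD of 0.26 on the log2(CPM + 0.5) scale. Over the 23 other settings its log2 fold change lay between 0.48 and 0.68 and its adjusted p between 0.0627 and 0.697.

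STEAP4 (chr9:68544721-68570585, minus strand) encodes a metalloreductase of iron and copper uptake. STEAP4 had 1.75 CPM at the lowest, 2.50 at the median and 5.16 at the highest in DHCA, against 0, 1.30 and 3.10 CPM in Sham. All 6 DHCA libraries were above the Sham median, while Sham 1 lay within the DHCA range and Sham 5 had no count. These are few reads, 12 to 38 per library in DHCA and 0 to 18 in Sham, and 3 counts correspond to 2.00 CPM in Sham 5. Its log2 fold change was 1.03 (SE 0.41, 95% interval 0.15 to 1.90, edgeR adjusted p 0.520).

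CD44, the hyaluronan receptor, had 12.8 to 26.2 CPM in DHCA and 10.7 to 21.0 CPM in Sham, with a log2 fold change of 0.35 (SE 0.22, edgeR adjusted p 0.762). S1PR3, a receptor of sphingosine 1-phosphate, had 2.16 to 2.92 CPM in DHCA and 0.666 to 6.11 CPM in Sham. Its log2 fold change was -0.34 (SE 0.32), and -0.07 without Sham 4, its highest library. Over the 23 other settings it lay between -0.58 and -0.07. Sham 5, the lowest library for S1PR3, had 1 count. AMIGO2, an adhesion protein, averaged 9.1 ± 1.71 CPM in DHCA and 8.81 ± 4.39 CPM in Sham (SD, n = 6 each), with a log2 fold change of -0.03 (SE 0.30). For AMIGO2 the mean was higher in DHCA while the fitted fold change was slightly negative, so no direction is given. LGALS3 (galectin 3), at 0.408 to 3.09 CPM in DHCA and 0 to 5.12 CPM in Sham, was not tested.

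LCN2 (lipocalin 2), a secreted iron carrier that marks reactive astrocytes in rodents, was read by the identifier that the reference name table gives, outside the matching by name. It had 10.4 to 22.7 CPM in DHCA and 13.0 to 28.7 CPM in Sham, with a log2 fold change of -0.25 (SE 0.26, edgeR adjusted p 0.825). LCN2 overlaps CIZ1 and another annotated gene in position, so its counts are less certain. ASPG, an asparaginase, had 0 counts in all 12 libraries under its reference identifier. S100B, a calcium-binding protein, had no identifier in the name tables and was not analysed here.

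The ID genes encode inhibitors of basic helix-loop-helix transcription factors and are targets of BMP signalling. ID3 had 10.3 to 29.9 CPM in DHCA and 12.1 to 28.0 CPM in Sham, with a log2 fold change of -0.27 (SE 0.27). ID4 had 44.9 to 102 CPM in DHCA and 41.1 to 78.9 CPM in Sham, with a log2 fold change of 0.29 (SE 0.25). ID1 had 31 counts over all 12 libraries and was not tested.

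**Figure D4:**
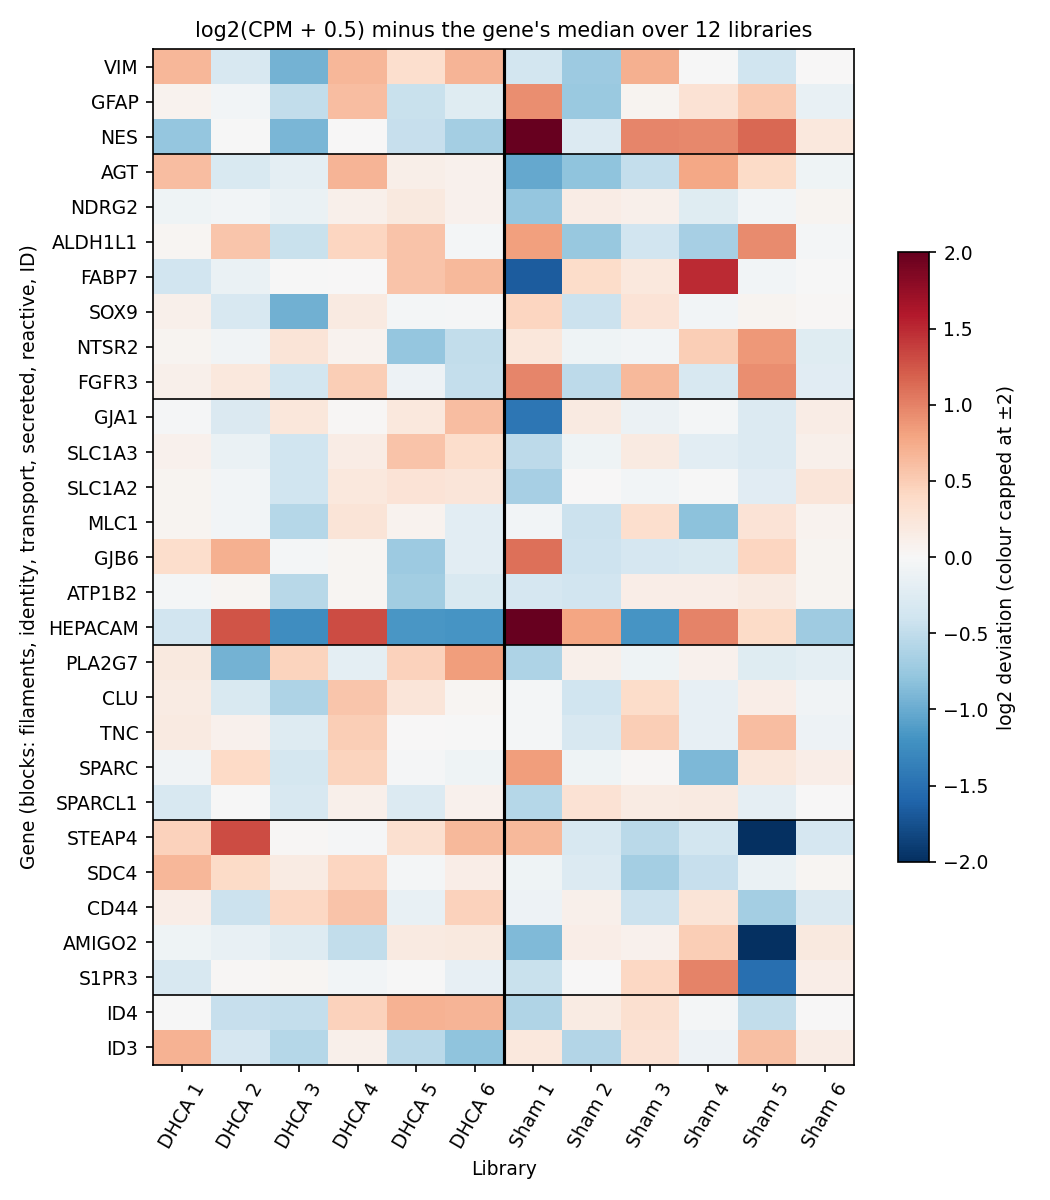
Log2(CPM + 0.5) of the 29 tested astrocyte genes in each library minus the gene's median over the 12 libraries, with DHCA left of Sham and genes in blocks by role; colour is capped at 2 in either direction. NES is below its median in most DHCA libraries, and Sham 1 holds the highest value of 7 genes and the lowest of 8.

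Single libraries set the extremes of many of these genes. Sham 1 was the highest library for 7 genes, among them GFAP, NES, FGFR3 and HEPACAM, and the lowest for 8, among them SLC1A2, SLC1A3, GJA1 and FABP7. DHCA 3 was the lowest for 5 genes, which were VIM, NES, SOX9, CLU and HEPACAM. Sham 6 was the extreme library for none of the 29. By mean CPM per kilobase of gene model, SPARC (740 in DHCA and 764 in Sham), CLU (625 in DHCA and 597 in Sham) and HEPACAM (510 in DHCA and 860 in Sham) were the highest. SLC1A2 (261 in DHCA and 233 in Sham) and GFAP (222 in DHCA and 271 in Sham) followed. CHI3L1 (0.0195 in DHCA and 0.0405 in Sham) and ID1 (0.0552 in DHCA and 0.160 in Sham) were the lowest. The HEPACAM mean in Sham includes 2488 in Sham 1. Medians were 268 in DHCA and 665 in Sham for HEPACAM, against 272 and 243 for SLC1A2.

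Genes outside the 35 names gave context in 5 lists. These lists were chosen with earlier results of these data known, so their counts beside a background do not test the lists. Of 30 other astrocyte identity genes tested, none was called by edgeR, DESeq2 or limma-voom with or without weights. At an unadjusted p under 0.05, 3 were higher and none lower (background 3.43% higher and 4.47% lower). The median log2 fold change of the 30 was -0.03. F3 (tissue factor, the starter of coagulation) was at 14.6 to 33.8 CPM in DHCA and 10.2 to 13.6 CPM in Sham. It was the only gene of this list whose groups did not overlap (background 0.993%), with a log2 fold change of 0.71 (SE 0.21, edgeR adjusted p 0.317). EDNRB (an endothelin receptor) had 0.51 (SE 0.18), ETNPPL (a phospholipid enzyme of astrocytes) 0.86 (SE 0.35) and NFIX (a glial transcription factor) -0.34 (SE 0.18).

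Among other genes listed for reactive astrocytes, edgeR called 1, EMP1, as higher, and DESeq2 and limma-voom with quality weights called more. Of 16 further pan-reactive and A2 genes tested, edgeR called 1, and 8 were higher and none lower at an unadjusted p under 0.05 (background 3.43% higher), with a median log2 fold change of 0.80. DESeq2 called 4 of these genes, limma-voom 1 and limma-voom with quality weights 5, beside 1.24%, 0.193% and 1.48% of all genes. EMP1, a membrane protein also made by vessel and epithelial cells, rose to 15.3 to 26.5 CPM in DHCA, against 1.85 to 9.66 CPM in Sham, with a log2 fold change of 2.26 (SE 0.33, edgeR adjusted p 0.0116). CXCL10 (an interferon-induced chemokine) was at 56.3 to 190 CPM in DHCA 1 to 4 but at 9.96 in DHCA 5 and 2.47 in DHCA 6, against 0.388 to 8.24 CPM in Sham, so the groups overlapped. CXCL10 had a log2 fold change of 4.70 (SE 0.95, edgeR adjusted p 0.0704), with an adjusted p of 0.000219 by DESeq2, 0.418 by limma-voom and 0.0281 by edgeR without DHCA 6. TIMP1 (a metalloproteinase inhibitor) had a log2 fold change of 1.43 (SE 0.34, edgeR adjusted p 0.140, DESeq2 adjusted p 0.00721) and OSMR (the oncostatin M receptor) one of 1.48 (SE 0.38, edgeR adjusted p 0.188, DESeq2 adjusted p 0.0195). Of 7 A1 genes tested, edgeR called none, and 3 were higher and none lower at an unadjusted p under 0.05 (background 3.43% higher). DESeq2 called 3 of the 7, limma-voom 1 and limma-voom with quality weights 2, beside 1.24%, 0.193% and 1.48% of all genes. FKBP5 had a log2 fold change of 1.76 and SRGN one of 1.68, both with an edgeR adjusted p of 0.0581, and GBP2 one of 0.97 (edgeR adjusted p 0.188). By DESeq2 the adjusted p was 0.000132 for FKBP5, 0.000258 for SRGN and 0.0222 for GBP2, and by limma-voom it was 0.0289 for FKBP5. SERPING1, the fourth by p, was at 0.79. For EMP1, TIMP1, FKBP5 and SRGN every DHCA library lay above every Sham library, while CXCL10, OSMR, GBP2 and SERPING1 overlapped. Groups did not overlap in 0.993% of all genes tested. Many genes of these lists are also made by endothelium or immune cells.

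Among 20 tested genes of signals that act through STAT3 or TGF-beta, SOCS3 (a feedback inhibitor of STAT3 signalling) was called by edgeR, and 7 were higher and none lower at an unadjusted p under 0.05 (background 3.43% higher). DESeq2 called 3 of these 20 genes, limma-voom 1 and limma-voom with quality weights 4, beside 1.24%, 0.193% and 1.48% of all genes. SOCS3 rose to 12.3 to 64.6 CPM in DHCA, against 1.14 to 8.57 CPM in Sham, with a log2 fold change of 3.04 (SE 0.52, edgeR adjusted p 0.0341). STAT3 itself had 110 to 156 CPM in DHCA and 75.3 to 106 CPM in Sham, with a log2 fold change of 0.64 (SE 0.14, edgeR adjusted p 0.123, DESeq2 adjusted p 0.000149). EDN1 (endothelin 1) had 1.36 (SE 0.40, edgeR adjusted p 0.296, adjusted p 0.00940 with quality weights). Among 25 tested BMP and ID pathway genes, ACVRL1 was called lower by edgeR, and 3 were lower and none higher at an unadjusted p under 0.05 (background 4.47% lower). DESeq2 and limma-voom with quality weights also called 1 gene of this list each, and limma-voom 0. ACVRL1, a receptor best known from endothelium, fell to 3.84 to 9.27 CPM in DHCA, against 10.1 to 21.3 CPM in Sham, with a log2 fold change of -1.37 (SE 0.25, edgeR adjusted p 0.0415). ENG (endoglin) was at -0.52, BAMBI (a decoy receptor) at -0.54 and CHRD (chordin) at -1.003. CHRD was at 4.48 to 11.6 CPM in DHCA and 5.49 to 41.2 CPM in Sham, with the highest value in Sham 4, and without Sham 4 its log2 fold change was -0.30 (SE 0.36). The call of SOCS3 was lost without DHCA 1, 2, 3, 4 or 6 or Sham 3, 4, 5 or 6 (edgeR adjusted p up to 0.112), and that of ACVRL1 without any of DHCA 1 to 5 or Sham 1, 3, 4 or 5 (up to 0.122). EMP1 was called without any 1 library, but had an edgeR adjusted p of 0.0753 without Sham 1 and Sham 5 together. Without both, the edgeR adjusted p was 0.122 for SOCS3 and 0.122 for ACVRL1. Without Sham 1, Sham 4 and Sham 5 it was 0.0991 for EMP1, 0.304 for SOCS3 and 0.314 for ACVRL1. Of the genes named from these 5 lists, F3, NFIX, CXCL10, TIMP1, OSMR, GBP2, STAT3 and ENG overlap another annotated gene in position, so their counts are less certain.

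**Figure D5:**
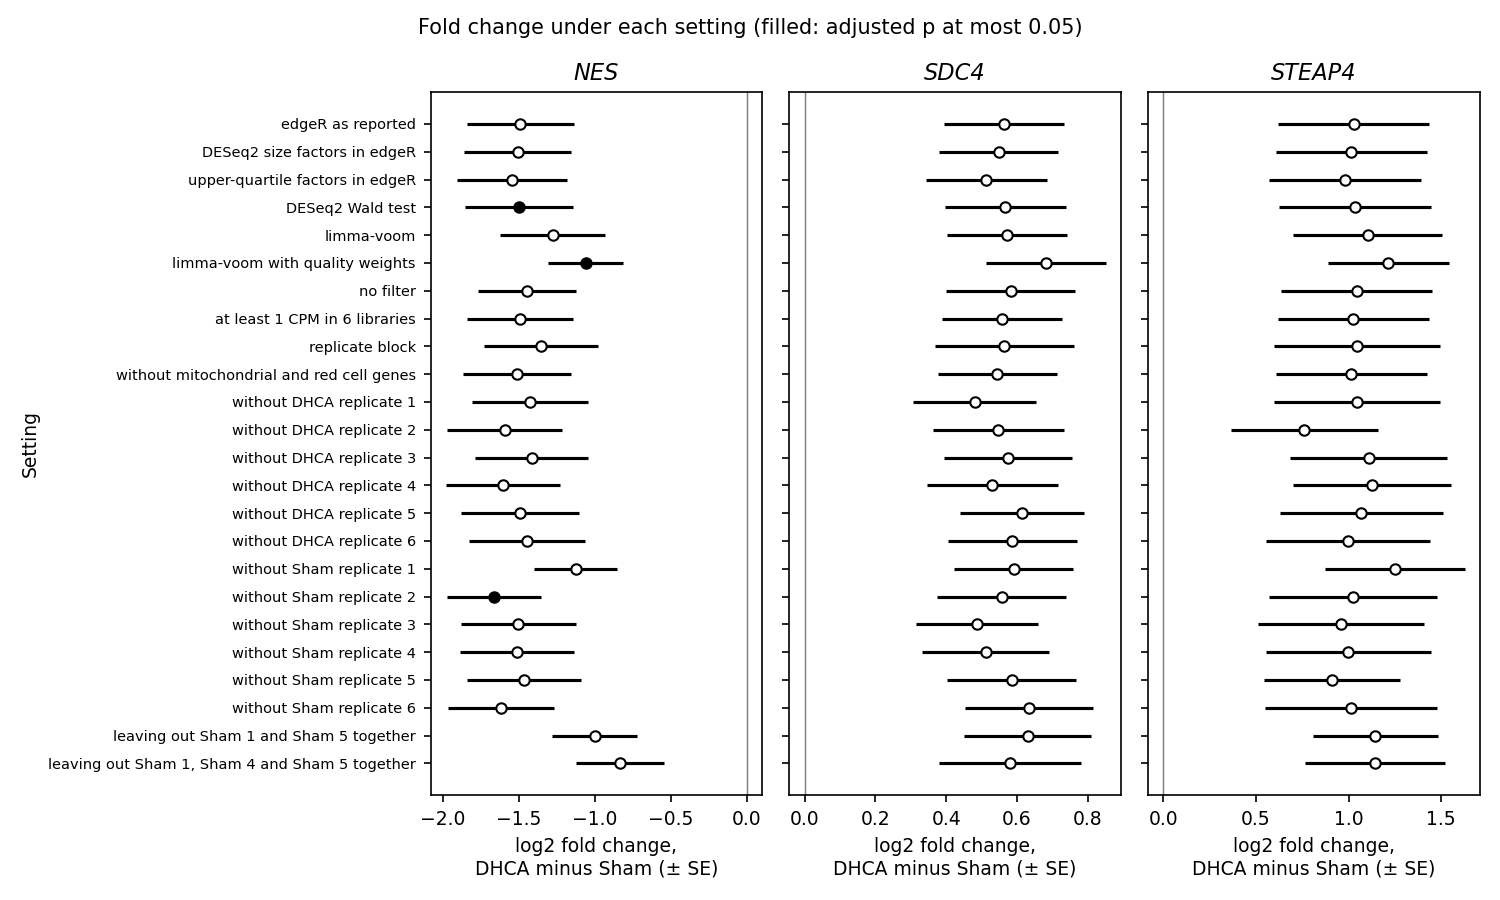
Log2 fold change (± SE) of NES, SDC4 and STEAP4 under edgeR as reported and 23 other settings, one per row; filled points have an adjusted p at or under 0.05. All values of NES are negative and all of SDC4 and STEAP4 positive, and filled points occur for NES only, in 3 settings.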

How the data were processed

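RNA from striatum was isolated with RNeasy columns, made into libraries with a TruSeq kit and sequenced on a HiSeq, per the labels' protocols. The authors deposited raw counts per gene, made with featureCounts 1.5.1 on Sscrofa11.1 with no strand option in the command, per the file headers, so antisense neighbours may share reads with a gene. For 8 of the 32 genes another gene overlaps in position (ALDH1L1, SLC1A3, CD44, CHI3L1, FABP7, CLU, ATP1B2 and ID1). No aligner is named in those sources. The authors' deposited comparison table, which the submitters' processing notes link to DESeq2, lists for every gene a normalized mean (a signal), a log2 fold change, the statistic as a score, and p-values, per the file headers. The direction of that ratio was taken from its match to the counts. Gene lengths, also in the deposited count table, are those of the gene models.

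The count table has 18 library columns, and 6 that match no sample were not used. Samples were grouped by title. The labels give 6 separate piglets per group. In R 4.3.3, genes were filtered with filterByExpr, scaled by TMM and tested with edgeR 4.0.16 (glmQLFit with robust estimation), with group as the only term and Benjamini-Hochberg adjustment over all genes tested. SEs and intervals come from that fit and cover 95%. CPM is TMM-scaled. DESeq2 1.42.0, limma 3.58.1 (voom), other scalings and filters, a replicate block and fits without single libraries were alternatives. The fit was tested on simulated data. Within-group pairs differed by more than sampling noise, with chi-square per degree of freedom of 8.50 to 125.8 over 30 pairs, so all were kept as separate samples.

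The 35 names and all other lists were chosen with earlier results of these data known. Values in all libraries were summarised for genes with an unadjusted p under 0.05 or without overlap, and for GFAP, VIM, SLC1A2, SLC1A3, GJA1 and S100B. Up to 4 genes with the smallest p were named from each other list. HEPACAM, FABP7, S1PR3, AMIGO2 and LCN2 were given more detail than that rule asks after their values were seen. OSMR, CLCF1 and EDNRB stand in 2 lists. No sequences were used here.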

Additional observations from a re-analysis of the deposited data

Results flagged for a closer look

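One value among the astrocyte genes lay far from the rest of its group. HEPACAM had 12728 CPM in Sham 1, against 998 to 4502 CPM in the remaining 5 libraries of that group. The gap to the nearest of them was 0.701 of the whole range of the group. Of 58 groups of 6 libraries examined this way over the 29 tested genes, this was the only one set apart, and chance sets apart about 1 group in 20.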

How the results depend on the processing

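The 26 genes called became 181 with DESeq2, 207 with limma-voom and quality weights, 12 without Sham 1 and Sham 5, 1 without Sham 1, Sham 4 and Sham 5, 6 at a threshold of 0.01, and 9 to 51 when single libraries were left out, by over 1.5 times fewer without DHCA 1, 2, 3 or 4 or Sham 3, 4 or 5 and more without Sham 2. The astrocyte genes called became 1 (NES) with DESeq2 and with quality weights, and 0 to 1 when single libraries were left out, the 1 being NES without Sham 2. Where the groups' replicate numbers entered as a replicate block, 8 genes and 0 astrocyte genes were called, with NES at -1.35 (adjusted p 0.464), and EMP1, SOCS3 and ACVRL1 had adjusted p of 0.0685, 0.0685 and 0.233. The same-number correlations ran from -0.40 to 0.36 and 1 of 6 DHCA libraries matched its own number best, so the numbers were not taken as pairs. The cause of none of these changes was tested. Some log2 fold changes that passed no threshold changed sign. With quality weights they were 0.0023 for GFAP, 0.25 for GJB6, 0.059 for SPARC, -0.011 for NDRG2, -0.055 for MLC1, 0.41 for HEPACAM, 0.015 for TNC and 0.060 for CHRD. Limma-voom gave 0.081 for GJB6, 0.023 for FABP7, 0.0064 for SPARC and 0.010 for TNC. The replicate block gave 0.059 for FABP7, 0.0036 for SPARC, 0.00099 for TNC and 0.089 for AMIGO2. Without Sham 1 and Sham 5, values were 0.045 for GFAP, 0.35 for GJB6, 0.24 for SPARC, 0.048 for FGFR3 and 0.088 for TNC. Without Sham 1, Sham 4 and Sham 5, they were 0.19 for GFAP, -0.0052 for SLC1A2, 0.32 for GJB6, 0.052 for SPARC, -0.080 for NDRG2, -0.079 for MLC1, 0.30 for HEPACAM, 0.034 for TNC, 0.0065 for NTSR2 and 0.25 for CHRD. MLC1 was -0.0098 with DESeq2 size factors, -0.044 with upper-quartile factors, -0.0029 with at least 1 CPM in 6 libraries and -0.014 without mitochondrial and red cell genes. When single libraries were left out, the range was -0.020 to 0.34 for ALDH1L1, -0.23 to 0.23 for GJB6, -0.37 to 0.24 for FABP7, -0.061 to 0.16 for CLU, -0.20 to 0.14 for SPARC, -0.12 to 0.10 for MLC1, -0.12 to 0.10 for TNC and -0.18 to 0.10 for AMIGO2. In all, 322 of 348 such values and 284 of 319 under other settings kept their direction and side of the threshold. Few reads limit STEAP4, S1PR3, LGALS3, ID1 and CHI3L1, above all in Sham 5.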
